A study of Mus musculus with 48 samples.

Results

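The genes described here are 7 markers of mature microglial identity, Tmem119, Cx3cr1, Fcrls, Siglech, Olfml3, Sall1 and Mef2a. They were picked by name from the genes of a glial panel, and all 7 were among its 478 genes with deposited values. The study took hippocampal microglia from Balbc/Byj mouse pups at 17 days of age in 3 rearing groups, CTL (control rearing), LB and UPS. As background, LB is rearing with limited bedding and nesting material and UPS is a variant with added unpredictable stress, both used as models of early-life stress. Each group had 16 animals, 8 male and 8 female, the labels name no transgene or deletion, and the sexes are pooled in the values below. Transcripts were counted with barcoded probes (nCounter) in lysates of about 60000 sorted microglia per animal, in 4 batches that each held 4 animals of every rearing group. According to the label protocols, 4 to 5 litters supplied the 8 animals of each rearing group and sex. Littermates were thus among them, and where these are alike the p-values come out too small.

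Microglia are the resident macrophages of the brain. They settle there before birth and acquire a mature expression programme after it, which depends on TGF-beta and on signals from neighbouring cells and which distinguishes them from other macrophages. The members cover 3 roles in that programme. Tmem119, Cx3cr1, Fcrls and Siglech encode surface proteins, Olfml3 encodes a secreted protein of the olfactomedin-like family, and Sall1 and Mef2a encode transcription factors. Tmem119 is a widely used marker that separates microglia from blood-derived macrophages and that rises as microglia mature. Cx3cr1 is the receptor of fractalkine, a chemokine made by neurons. Fcrls is an Fc receptor-like protein, and Siglech belongs to the family of sialic acid-binding lectins. Sall1 is needed to keep microglia in their tissue-specific state, and Mef2a belongs to the family of MEF2 factors that bind AT-rich sites in DNA.

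The values are those of the authors' deposited tables, 1 table for each pair of groups, with a log2 ratio and a p-value per gene. Values per animal and expression levels were not analysed here, so the depth is unknown, no mean or spread per group is given, and the microglial label could not be checked against levels. The headers leave the numerator of each ratio unstated. Signs are therefore given as deposited, without calling a member higher in LB or UPS. With the later-named group as numerator, a positive value stands for more transcript in that group, and the opposite convention turns all signs at once. In a bulk lysate, fewer cells of a kind and less RNA per cell cannot be told apart. A gene passed when its p-value, adjusted by the Benjamini-Hochberg method over all 478 genes of its table, was below 0.05. Each ratio is given with a 95% interval from a standard error recovered from the deposited ratio and p.

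Of the 7 members, 1 passed in any pair of groups. Tmem119 passed between LB and UPS, and no member passed between CTL and LB or between CTL and UPS. Over all genes tested, 0% passed between CTL and LB, 4.81% between CTL and UPS and 6.28% between LB and UPS, and 7.53% passed in at least 1 pair. At an unadjusted p below 0.05 there were 2 members in each pair, against 11.7%, 16.3% and 18.8% of all genes in that order. Those were Olfml3 and Siglech between CTL and LB, and Tmem119 and Mef2a both between CTL and UPS and between LB and UPS. The remaining members, Cx3cr1, Fcrls and Sall1, had no unadjusted p below 0.05 in any pair.

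**Figure D1:**
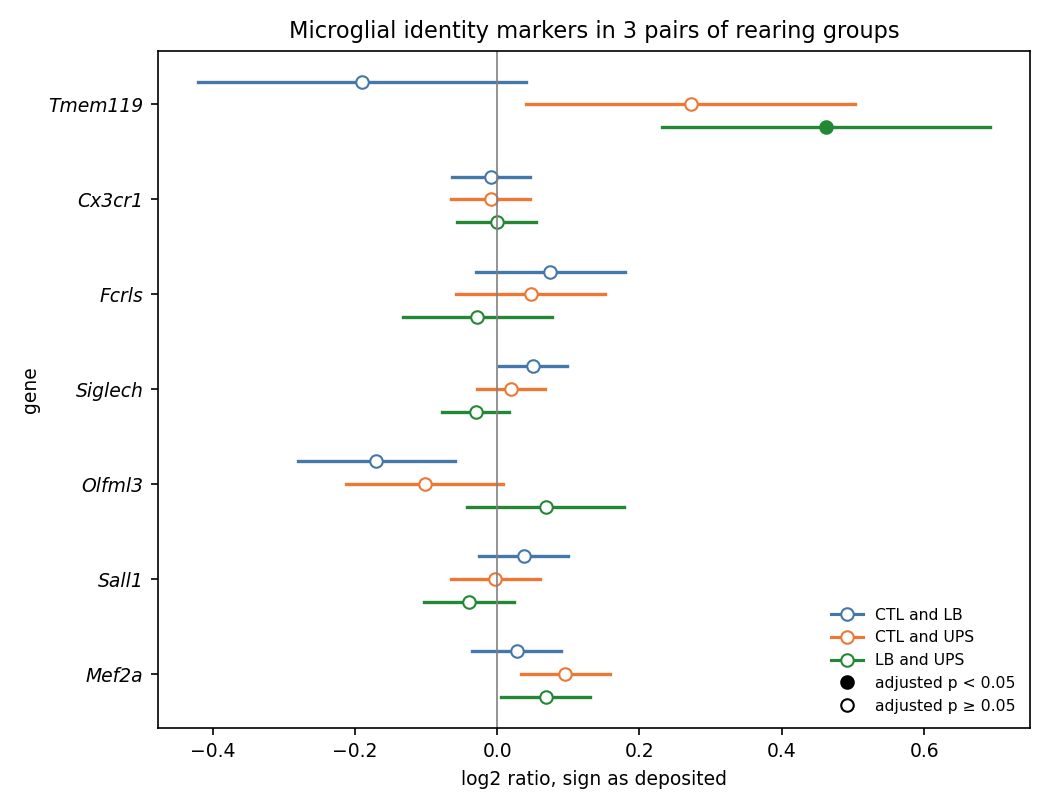
Log2 ratio of each identity marker (x axis, sign as deposited) in the 3 pairs of rearing groups (colours), with lines for the recovered 95% interval and filled points for an adjusted p below 0.05. The single filled point is Tmem119 between LB and UPS at 0.46, and the 3 ratios of Cx3cr1 lie within 0.01 of 0.

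Promoter sequence is shown for the surface receptor Cx3cr1, whose ratios lay closest to 0, and for Olfml3, which had the smallest p of the members between CTL and LB. The RefSeq promoter table (GRCm38.p6) held windows for 6 of the 7 members and none for Tmem119. The 250 bases before the listed start lay wholly outside the gene for 3 members, Cx3cr1, Olfml3 and Sall1. Sequences are printed 5′ to 3′ in the direction of transcription, both from the minus strand. Capitals mark matches to any of 4 motifs searched on both strands. These are the PU box GAGGAA of the myeloid factor PU.1, a loose MEF2-like pattern, the SMAD box CAGAC of TGF-beta signalling and the GC box GGGCGG. The MEF2-like pattern is CTA and TAG with any 4 bases between them, so it is looser than an AT-rich MEF2 site.
Cx3cr1, chr9:120068297-120068546, minus strand: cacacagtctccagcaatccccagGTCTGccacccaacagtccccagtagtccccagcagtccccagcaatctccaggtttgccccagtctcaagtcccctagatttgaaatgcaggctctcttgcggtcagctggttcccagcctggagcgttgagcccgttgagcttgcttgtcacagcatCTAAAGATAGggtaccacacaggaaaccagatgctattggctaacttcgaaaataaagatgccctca
Olfml3, chr3:103738002-103738251, minus strand: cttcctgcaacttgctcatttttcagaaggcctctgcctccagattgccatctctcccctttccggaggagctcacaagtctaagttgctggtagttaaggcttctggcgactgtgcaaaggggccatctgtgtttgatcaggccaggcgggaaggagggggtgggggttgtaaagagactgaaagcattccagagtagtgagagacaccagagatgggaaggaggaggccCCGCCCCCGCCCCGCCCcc

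The Cx3cr1 window held a match to the MEF2-like pattern that begins 67 bases before the start and a SMAD box 226 bases before it. The middle bases of the MEF2-like match, AAGA, include a G and so are not all A or T. The Olfml3 window held a run of GC boxes on the opposite strand, beginning 19, 13 and 8 bases before the start, and no match to the other motifs. Of all 32851 windows of this length in the table, 3.2% held the MEF2-like pattern, 23.3% a PU box, 42.2% a SMAD box and 32.7% a GC box. Among the 8 windows of the members, the MEF2-like pattern occurred in 1, the PU box in 2, the SMAD box in 4 and the GC box in 3. These matches describe letters in a window and are not evidence of binding.

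Tmem119 had the largest ratio by size of the 7 members in every pair. Its log2 ratio in the authors' deposited tables stood at -0.19 for CTL and LB (95% interval -0.42 to 0.041, p = 0.104, adjusted p = 0.492). Between CTL and UPS it was 0.27 (interval 0.041 to 0.50, p = 0.022, adjusted p = 0.21 in the authors' deposited table). Between LB and UPS it was 0.46, or 1.38-fold (interval 1.17-fold to 1.62-fold, p = 0.000223, adjusted p = 0.0076, by the authors' deposited table), the 14th smallest p among the 478 genes. The control group thus lay between LB and UPS, which holds under either reading of the sign. Only the outer groups differed past the threshold, and neither step from CTL to a stress group did. The distance from the lowest to the highest group, 0.46, was the 14th largest of the 478 genes.

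Tmem119 was also the least precisely measured member. Its recovered standard error was 0.114 on the log2 scale, larger than that of 88.7% of the 478 genes, whose median was 0.050. The interval between CTL and LB reached 1.34-fold, beside the 1.38-fold measured between LB and UPS. When the table of LB and UPS was adjusted by Bonferroni or Benjamini-Yekutieli, which are stricter, Tmem119 no longer passed (adjusted p = 0.107 and 0.0514, n = 16 animals per group).

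Cx3cr1, in contrast, was level across rearing to within narrow limits. The authors' deposited tables gave log2 ratios of -0.0087 between CTL and LB (adjusted p = 0.929), -0.0093 between CTL and UPS (adjusted p = 0.883) and, for LB and UPS, -0.00063 (adjusted p = 0.999). Its recovered standard error was 0.027, the 21st smallest of the 478 genes. The intervals of the 3 ratios lay within 1.05-fold, 1.05-fold and 1.04-fold. The sign between LB and UPS has no meaning at this size and turned to 0.0096 after centring on the table's median. Of the 478 genes, 470 had a larger distance between their lowest and highest group. Cx3cl1, which encodes fractalkine, was not analysed here.

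**Figure D2:**
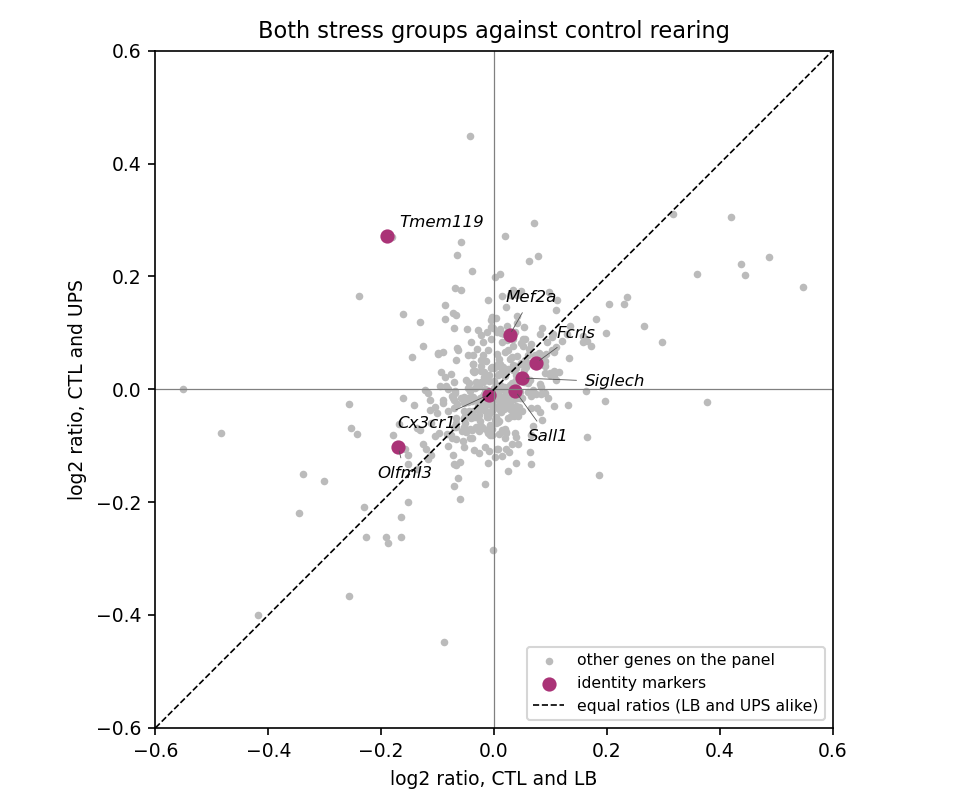
Deposited log2 ratios of CTL and LB (x axis) against CTL and UPS (y axis) for the panel genes within 0.6 of 0, with the identity markers in purple and 8 genes beyond the range not drawn. Tmem119 lies far above the line of equal ratios, Cx3cr1 at the origin and Olfml3 below both zero lines. Both axes share the CTL animals.

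The other surface markers, Siglech and Fcrls, had small ratios. For Siglech the authors' deposited tables gave 0.050 between CTL and LB (interval 0.0025 to 0.098, p = 0.0398, adjusted p = 0.413), 0.020 between CTL and UPS (adjusted p = 0.694) and, for LB and UPS, -0.030 (adjusted p = 0.522). Siglech had the 4th smallest standard error of the 478 genes, 0.024. Differences above 1.07-fold, 1.05-fold and 1.06-fold thus lay outside its intervals in that order. Fcrls had 0.075, 0.047 and -0.028 in the authors' deposited tables, with adjusted p of 0.567, 0.668 and 0.81. Its standard error of 0.052 was near the median of all genes, and its intervals reached 1.13-fold, 1.11-fold and 1.10-fold. In both genes UPS lay between CTL and LB.

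Olfml3, the secreted member, had negative ratios against CTL in both stress groups. The authors' deposited tables put its log2 ratio at -0.17 for CTL and LB (interval -0.28 to -0.060, p = 0.00334, adjusted p = 0.194). It was -0.10 between CTL and UPS (interval -0.21 to 0.0083, p = 0.0698, adjusted p = 0.345) and, for LB and UPS, 0.068 (adjusted p = 0.534) in the authors' deposited tables. The ratio between CTL and LB had the 7th smallest p of its table, in which no gene passed and the smallest adjusted p was 0.101. UPS lay between CTL and LB, as in Siglech and Fcrls, but with the order of the outer groups turned. The ratios against CTL share the same 16 control animals, so their common sign is not independent evidence.

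Of the transcription factors, Mef2a came closest to the threshold. According to the authors' deposited tables its log2 ratio stood at 0.028 for CTL and LB (adjusted p = 0.788), 0.096 between CTL and UPS (interval 0.033 to 0.16, p = 0.00356, adjusted p = 0.0596) and, for LB and UPS, 0.068 (interval 0.0057 to 0.13, p = 0.0331, adjusted p = 0.208). The p between CTL and UPS ranked 28th of 478, where 23 genes passed. LB lay between CTL and UPS. Sall1 had 0.037, -0.0025 and -0.040 in the authors' deposited tables (adjusted p = 0.657, 0.98 and 0.524), and its intervals excluded differences above 1.07-fold, 1.05-fold and 1.07-fold. The standard error was 0.031 for both factors. Sall3, a paralog of Sall1, was measured much less precisely, with a standard error of 0.120, and the authors' deposited tables gave it -0.26, -0.026 and 0.23, none of which passed.

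**Figure D3:**
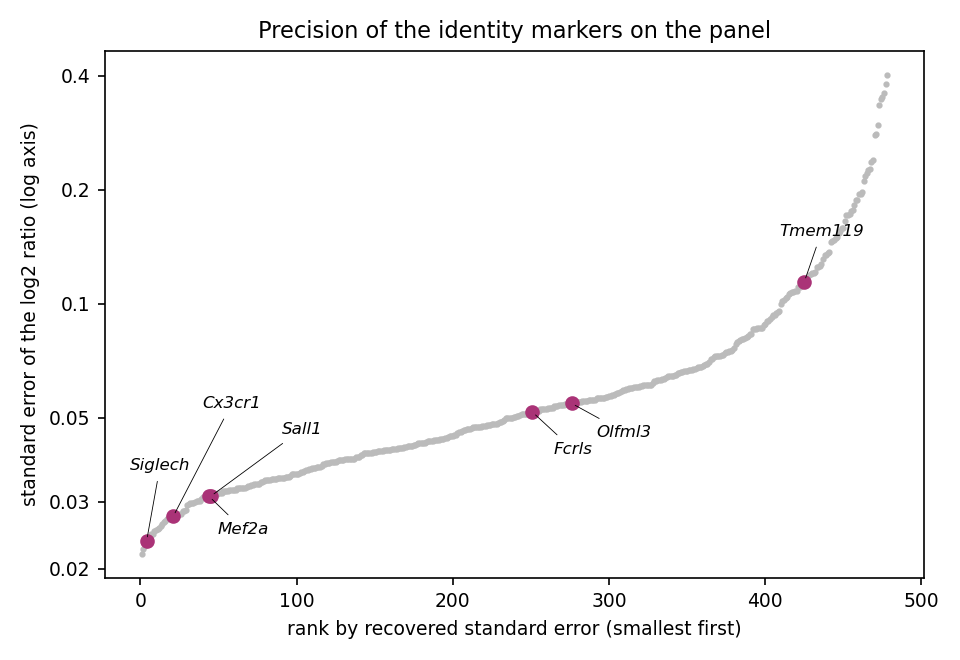
Recovered standard error of the log2 ratio (y axis, log scale) against its rank among 478 genes (x axis), with the identity markers in purple. Siglech, Cx3cr1, Mef2a and Sall1 lie among the most precisely measured genes at 0.024 to 0.031, Fcrls and Olfml3 near the middle at 0.052 and 0.055, and Tmem119 near the top at 0.114.

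An F statistic over the 3 groups, rebuilt from the pairwise ratios and the common standard error, asks whether rearing mattered at all without fixing a pair. It was chosen after the data were seen and rests on n = 16 animals per group. With Benjamini-Hochberg adjustment over 478 genes it called 33 genes (6.9%) and 1 member, Tmem119 (F = 8.24, adjusted p = 0.0202, n = 16 animals per group). Mef2a (F = 5.06, p = 0.0108, adjusted p = 0.114) and Olfml3 (F = 4.91, p = 0.0121, adjusted p = 0.116) followed, with n = 16 animals per group and an unadjusted p below 0.05 as in 94 genes (19.7%). Siglech (adjusted p = 0.361), Fcrls (0.596), Sall1 (0.607) and Cx3cr1 (0.955) did not pass with n = 16 animals per group. The series text names 87 genes for rearing, 13 for sex and 5 for an interaction in the authors' own multivariate analysis. These genes were not analysed here, and the ratios pool the sexes.

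The middle group as deposited differed between the members. In none did the intervals resolve both steps from the middle group to the outer groups, so the order is uncertain. As deposited, CTL was the middle group in 2 members (Tmem119 and Sall1), LB in 2 (Cx3cr1 and Mef2a) and UPS in 3 (Fcrls, Siglech and Olfml3). For Cx3cr1 this rests on a difference with no meaning, and after centring UPS was its middle group. For Sall1 it rests on a ratio of -0.0025 between CTL and UPS (p = 0.936 in the authors' deposited table). As deposited, over all genes the shares in that order were 37.0%, 30.1% and 32.8%. The median distance between the lowest and highest group was 0.075 for the members and 0.082 for all genes. Between LB and UPS the members had 3 positive and 4 negative ratios with a median of -0.00063, beside 210 and 268 with a median of -0.010 over all genes. Against CTL they had 4 positive and 3 negative ratios in each table, with medians of 0.028 for LB and 0.020 for UPS, where all genes had 0.0035 and -0.0025. Whether the ratio of Tmem119 differs from that of another member was not tested, since values per animal would be needed.

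The genes whose pair of log2 ratios against CTL lay nearest to that of Tmem119, by Euclidean distance over these 2 ratios, were Cspg4, Ank2 and Cables1. Cspg4 encodes the NG2 proteoglycan, a marker of oligodendrocyte precursors and pericytes. Its log2 ratios in the authors' deposited tables were -0.18, 0.27 and 0.45, a distance of 0.0092 from Tmem119, but with a standard error of 0.195 it did not pass in any pair (adjusted p = 0.176 between LB and UPS). Ank2, which links membrane proteins to the cytoskeleton, had -0.24, 0.17 and 0.41 in the authors' deposited tables (distance 0.117) and passed between LB and UPS (adjusted p = 0.0206). Cables1, a Cdk5-binding protein, had -0.065, 0.24 and 0.30 (distance 0.130) and passed both against CTL for UPS (adjusted p = 0.00897) and for LB and UPS (adjusted p = 0.000277) in the authors' deposited tables. With 3 groups a likeness of this kind rests on 2 independent values per gene.

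Other genes of the microglial identity programme were read from a list of 44, of which 35 were measured. Between LB and UPS 7 of the 35 passed, beside 6.28% of all genes. Of the 7, 6 had a positive ratio and 1 a negative, and the list's median log2 ratio was 0.033. The largest ratios past the threshold, by the authors' deposited table, were those of Mertk, a receptor for engulfing apoptotic cells (0.25), and Tgfbr1, a TGF-beta receptor (0.18). The complement C1q genes C1qb (0.16), C1qc (0.13) and C1qa (0.13) and the organic anion transporter Slco2b1 (0.14) had positive ratios past the threshold as well, by the authors' deposited table. The potassium channel Kcnk13 was the exception at -0.11, by the authors' deposited table. The point estimate of Tmem119, 0.46, was larger than any of these. Its interval of 0.23 to 0.69 included the 0.25 of Mertk, and the difference between the genes was not tested. CTL lay between LB and UPS, as for Tmem119, in 6 of these 7 genes, all but Mertk. The 7 were picked by the pair of outer groups, so this is a description. In the whole list CTL was the middle group in 15 of the 35 measured genes (42.9%), near the 37.0% of all genes. Among them, C1qb had -0.099 and 0.064, Tgfbr1 -0.071 and 0.11, and Slco2b1 -0.065 and 0.073 against CTL for LB and UPS in the authors' deposited tables.

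Between CTL and UPS 3 of the 35 passed in the authors' deposited table, beside 4.81% of all genes. These were Mertk (0.27) and Tgfbr1 (0.11) with a positive and Kcnk13 (-0.11) with a negative ratio. Kcnk13 did not pass after centring on the table's median (adjusted p = 0.0527, n = 16 animals per group) or with the 3 tables adjusted together (0.0544). Between CTL and LB none passed, and the list's smallest p-values, by the authors' deposited table, belonged to C1qb (-0.099, p = 0.00315), Sparc, a matrix-binding protein (0.11, p = 0.00762), and the protease Ctss (-0.15, p = 0.00885), with adjusted p of 0.194, 0.207 and 0.209. In the authors' deposited tables P2ry12, a purinergic receptor of resting microglia, had 0.082, 0.0088 and -0.073, none of which passed. Its point estimates had signs opposite to those of Tmem119 in the pairs that involve LB. The intervals of P2ry12 included 0 in every pair (-0.00037 to 0.16, -0.073 to 0.091 and -0.16 to 0.0092). Its signs are thus unresolved. Csf1r, the survival receptor, had -0.042, -0.0024 and 0.039 in the authors' deposited tables, none of which passed.

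**Figure D4:**
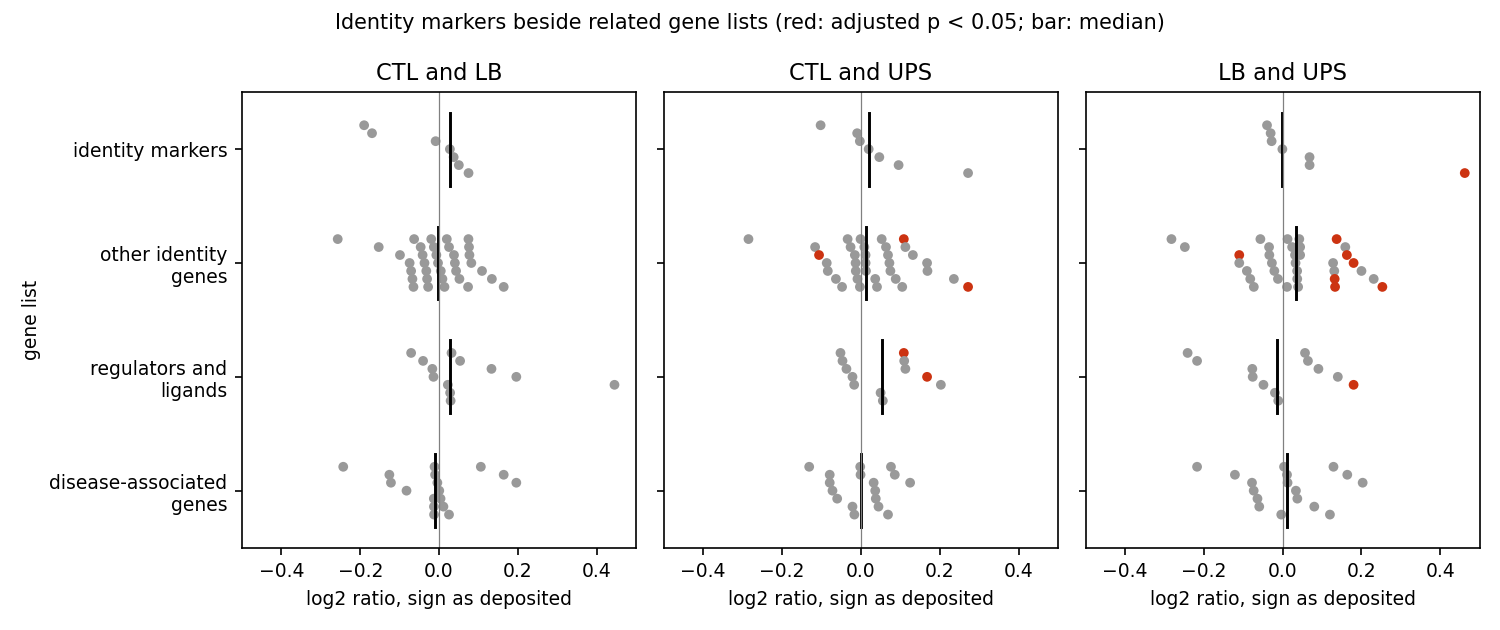
Log2 ratios (x axis, sign as deposited) of the identity markers and 3 related gene lists in each pair of groups, with red for an adjusted p below 0.05 and a bar at each list's median. The red point farthest from 0 is Tmem119 in the panel for LB and UPS, and no point is red for CTL and LB.

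Regulators of the identity programme were read from a list of 31 factors, TGF-beta pathway genes and ligands, of which 12 were measured. Tgfbr1 passed between CTL and UPS and between LB and UPS, as above. Pmepa1, a feedback inhibitor of TGF-beta signalling, passed between CTL and UPS (0.17, adjusted p = 0.0461) and not between LB and UPS (0.14, adjusted p = 0.0925) in the authors' deposited tables. With the 3 tables adjusted together Pmepa1 did not pass for UPS against CTL (adjusted p = 0.0544, n = 16 animals per group). Tgfb1, the ligand, had -0.076 between LB and UPS in the authors' deposited table (p = 0.00607, adjusted p = 0.0726), opposite in sign to its receptor. The myeloid factors Spi1 (-0.020), which encodes PU.1, and Irf8 (-0.049), and Smad3, which carries the TGF-beta signal (0.064), did not pass between LB and UPS in the authors' deposited table. No regulator passed between CTL and LB, where the authors' deposited table gave the smallest p-values to Tgfbr1 (-0.071, p = 0.0306), the immediate early gene Egr1 (0.45, p = 0.0709) and the growth factor Csf1 (0.20, p = 0.0765).

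Of 26 disease-associated microglia genes, which rise as identity markers fall in many disease models, 17 were measured and 0 passed in any pair. Over all genes 7.53% passed in at least 1 pair, so a count of 0 among 17 is near that share. The list's medians were -0.010, -0.00074 and 0.011. By unadjusted p below 0.05 there was 1 between CTL and LB (Ctsd), 1 between CTL and UPS (Apoe) and, for LB and UPS, 2 (Ctsd and Apoe). Over all genes those shares were 11.7%, 16.3% and 18.8%. Between LB and UPS the authors' deposited table gave the lysosomal protease Ctsd 0.12 (adjusted p = 0.0726; 0.0468 after centring and 0.0471 with a normal test), the lipid carrier Apoe 0.13 (adjusted p = 0.218) and Csf1 -0.22 (adjusted p = 0.267). Ctsd had -0.12 between CTL and LB (adjusted p = 0.198) and Apoe 0.13 between CTL and UPS (adjusted p = 0.30 by Benjamini-Hochberg) in the authors' deposited tables.

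Markers of other cells were few in the tables, and some moved with Tmem119 between LB and UPS. The astrocyte gene Slc1a3, a glutamate transporter, passed there with 0.25 (adjusted p = 0.00995) and Stab1, a scavenger receptor of border macrophages, with 0.20 (adjusted p = 0.0146), by the authors' deposited table. The second measured gene of each list did not pass there, with Glul at 0.15 (adjusted p = 0.117) and Apoe at 0.13 in the authors' deposited table. Against CTL, the authors' deposited tables gave Slc1a3 -0.039 for LB and 0.21 for UPS (adjusted p = 0.842 and 0.0461) and Stab1 0.0097 for LB and 0.20 for UPS (adjusted p = 0.966 and 0.0197). Both thus passed for UPS with the sign of Tmem119. Slc1a3 did not pass there with the 3 tables adjusted together (adjusted p = 0.0559, n = 16 animals per group). Of 11 oligodendrocyte lineage genes 4 were measured and none passed. Their medians were -0.11, -0.023 and 0.015 in the order of the tables, and Cspg4 was the only gene among them above 0.05 between LB and UPS. The single measured genes for neurons (Gad1, 0.0029), neutrophils (Csf3r, 0.11) and lymphocytes (Klrd1, -0.47) and the vascular genes Pecam1 (0.068) and Cd34 (0.018) did not pass between LB and UPS in the authors' deposited table. Against CTL, the authors' deposited tables gave Cd34 -0.42 for LB (p = 0.0017, adjusted p = 0.194) and -0.40 for UPS (adjusted p = 0.0511), the former passing with the 3 tables adjusted together (adjusted p = 0.0498). Klrd1 had -0.30 for LB and -0.77 for UPS (p = 0.0388, adjusted p = 0.294) in the authors' deposited tables. None of 5 monocyte markers was among the 478 genes. Whether other cells contributed to the ratio of Tmem119 was not tested.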

How the data were processed

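Per the series text, the authors compared each pair of rearing groups with the advanced analysis of nSolver with batch as a covariate. Their normalization was not given in the sources used here, nor were the housekeeping genes or the software version. Per the file headers, the deposited tables hold, for 478 genes each, a log2 ratio, a linear ratio (fold change), a p-value and its adjusted form (Benjamini-Hochberg). A count minimum of 20 is also named in the series text. Genes are called measured here when they have deposited values. Whether the other listed genes fell below a count minimum or were not on the panel is unknown. No model was refitted. The p-values were adjusted again over each table, and the same genes passed as by the deposited column. Standard errors were recovered from ratio and two-sided p with a t distribution. Of 6 candidate models, that of all 48 libraries with rearing and batch (42 residual degrees of freedom) gave standard errors that differed least between a gene's tables (median 0.223%, over 120 genes with every p below 0.5, against 0.278% to 1.67%). The plan had assumed fits per pair. Recovery and F statistic were tested on simulated data with Python 3.11.15, numpy 2.4.6, pandas 2.3.3 and scipy 1.17.1. Alternatives were other adjustments, centring, degrees of freedom and a normal test.

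The members, gene lists and naming rule were chosen with earlier results of these data known. Named were all 7 members, listed genes past the threshold, otherwise the 3 smallest p-values per list and comparison, measured markers of other cells (from the oligodendrocyte list the 2 smallest p-values), and the 3 nearest genes of Tmem119. P2ry12, Csf1r, Sall3, Spi1, Irf8 and Smad3 were added after their values were seen. Some genes are not reported here. Promoter windows came from RefSeq (GRCm38.p6) by symbol.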

Additional observations from a re-analysis of the deposited data

How the results depend on the processing

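With n = 16 animals per group throughout, each member's value in each pair was set beside 11 alternatives, 231 in all. Of these, 227 kept direction and side of the threshold, which many could not fail to do. Other degrees of freedom altered only the interval, the deposited adjusted p repeats the main one, and only centring could change a ratio. Tmem119 between LB and UPS kept its ratio of 0.462 but did not pass with Bonferroni (adjusted p = 0.107, n = 16) or Benjamini-Yekutieli adjustment (0.0514). Mef2a between CTL and UPS, at 0.0958, passed with a normal in place of a t distribution (adjusted p = 0.0339, n = 16), an alternative added after the data were seen. Cx3cr1 between LB and UPS turned to 0.0096 after centring (adjusted p = 0.908, n = 16). Members past the threshold between LB and UPS were 1, and 0 with Bonferroni or Benjamini-Yekutieli, as for the F test over the 3 groups; between CTL and UPS they were 0, and 1 with the normal test. Other identity genes past between CTL and UPS were 3, and 1 with Bonferroni or Benjamini-Yekutieli; between LB and UPS they were 7, and 4 with Bonferroni. Over all genes, 3 passed between CTL and LB with the 3 tables adjusted together, among them Cd34, and 2 with the normal test. Between CTL and UPS 23 passed (17 positive, 6 negative), and 5 with Bonferroni, 4 with Benjamini-Yekutieli and 20 after centring (17 positive, 3 negative). Between LB and UPS 30 passed, and 11 with Bonferroni and 13 with Benjamini-Yekutieli. The stricter adjustments lose calls by construction. Other degrees of freedom changed the members' interval widths by at most 3.55%. No animal could be left out in turn. No paired analysis was possible because the tables hold comparisons and no values per animal. Precision is limited by 16 animals per group and by unknown counts per gene.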
